A study of Homo sapiens with 14 samples.

Results

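Protocadherins are the largest branch of the cadherin superfamily, single-pass membrane proteins that hold cells together or mark them as different through their extracellular cadherin repeats. The clustered genes lie in tandem as an alpha, a beta and a gamma array on chromosome 5. In the alpha and gamma arrays each gene contributes its own long first exon, which is spliced to constant exons shared by the whole array, whereas each beta gene is a single coding exon. Neurons switch on a small and varying choice of these promoters, with the protein CTCF and the cohesin ring linking promoter and enhancer, and the resulting set of surface proteins lets a neuron tell its own branches from those of other neurons. The C-type genes at the ends of the alpha and gamma arrays are used more uniformly from cell to cell. The non-clustered protocadherins are scattered over the genome, and several of them guide cell movement and axon growth.

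The family was taken as every gene whose symbol begins with PCDH, without antisense genes and numbered pseudogenes, and came to 70 of 57445 genes in the count tables: 16 alpha, 19 beta, 22 gamma and 13 non-clustered genes. The label fits what was counted, except that PCDHB17, PCDHB18, PCDHB19P, PCDHA14 and PCDHGB8P are annotated as pseudogenes. RNA came from H9 (WA-09), an established human pluripotent stem cell line, and from cells differentiated from it toward midbrain dopamine neurons. Levels are given for 10 libraries, 2 for each of 5 groups: day 11 cultures given 0.7, 3, 5 or 7.5 µM CHIR99021 (CHIR), and undifferentiated stem cells (hPSC, day 0). CHIR99021 inhibits the kinase GSK3 and so activates WNT signalling. All 4 day 11 groups began with SHH C25II, LDN, SB431542, a Rock inhibitor and 0.7 µM CHIR until day 3. The 4 concentrations were given from day 4 until day 10, SHH, LDN and SB were withdrawn on day 7, and all 4 groups changed on day 10 to a medium with BDNF, ascorbic acid, GDNF, TGFβ3, dibutyryl cAMP and 3 µM CHIR. Nothing in the labels says that the replicates were separate cultures, so what the p-values weigh is the variation among the libraries at hand, which may be technical.

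Gene counts came to 20.52 to 44.76 M per day 11 library and to 32.29 and 25.06 M in the hPSC libraries. Of the pluripotency markers, POU5F1 was at 0.374 to 1.31 CPM (counts scaled to 1000000 gene counts per library) at day 11 and at 463 to 522 CPM in hPSC, whereas LIN28A was at 1110 CPM or more in all 10 libraries. The floor plate marker FOXA2 was at 52.4 to 211 CPM at day 11 and at 0.12 to 0.557 CPM in hPSC. The day 11 libraries of the same replicate number resembled each other: their deviations from the group means correlated at 0.639 to 0.855 over the 6 pairs of doses, and the sample descriptions carry one code for all replicate 1 and another for all replicate 2 libraries. Tests at day 11 were therefore run with replicate number ignored and with it entered as a block, and calls made only with the block are named as such.

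Short promoter sequences show how alike the clustered genes are where transcription begins. RefSeq (GRCh38.p14) holds promoters for 57 of the 70 genes, 13 alpha, 14 beta, 19 gamma and 11 non-clustered, and the 250 bases before each start were searched on both strands. The word CGCTG, the core of the element that CTCF binds in this family, occurred in 39 of the 46 clustered promoters (84.8%), in 7 of the 11 non-clustered ones and in 40.3% of 27305 promoters of all genes. The longer words that the most promoters of an array share differ between arrays and overlap CGCTG. ATGTCGCT stood in 9 of 13 alpha promoters, against 0.194% of all promoters, GGTGGCGC in 12 of 14 beta promoters, against 1.89%, and GCCGCTGT in 10 of 19 gamma promoters, against 1.19%. These words were chosen because the arrays share them, so the shares describe the arrays and test nothing. CGCTG alone, present in 40.3% of all promoters, does not show that the whole element is there. These windows show the word and its surroundings for a few genes of each array, on the + strand of chromosome 5 with CGCTG in capitals.
PCDHA2, chr5:140794785-140794806: gccacatgatgtCGCTGtccac
PCDHA10, chr5:140855845-140855866: gccaccggatgtCGCTGtcgtc
PCDHAC1, chr5:140926273-140926294: tcggcagctccaCGCTGagtcc
PCDHB2, chr5:141094548-141094569: gacgcggggtggCGCTGcagcc
PCDHB5, chr5:141135183-141135204: gacgcctggtggCGCTGcaggc
PCDHB10, chr5:141192303-141192324: gccacacggtggCGCTGcaggc
PCDHGA10, chr5:141412935-141412956: gactctgagcgcCGCTGttcac
PCDHGC3, chr5:141475884-141475905: gactctgtgtgcCGCTGtcggc
PCDHGC4, chr5:141484956-141484977: gagcccgggagcCGCTGtctgc
The 3 beta windows share the bases just before the word, and PCDHAC1, a C-type gene, has neither the alpha nor the gamma surroundings. PCDHGC4, also a C-type gene, holds the gamma word but not the run of bases that opens the PCDHGA10 and PCDHGC3 windows.

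All 3 arrays and the non-clustered genes were read in every library, at modest levels. Summed over its 16 genes, the alpha array reached 5.55 to 60.5 CPM in the day 11 libraries and 47.4 and 55.2 CPM in hPSC. The beta array summed to 73.1 to 224.9 CPM at day 11 and to 108.9 and 125.6 CPM in hPSC. The gamma array summed to 27.8 to 228 CPM at day 11 and to 72.6 and 77.9 CPM in hPSC. The 13 non-clustered genes summed to 189.9 to 674 CPM at day 11 and to 281 and 342 CPM in hPSC. In each of the 4 groups the day 11 range enclosed both hPSC values. In bulk RNA, fewer cells of a type and less RNA per cell cannot be told apart.

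**Figure D1:**
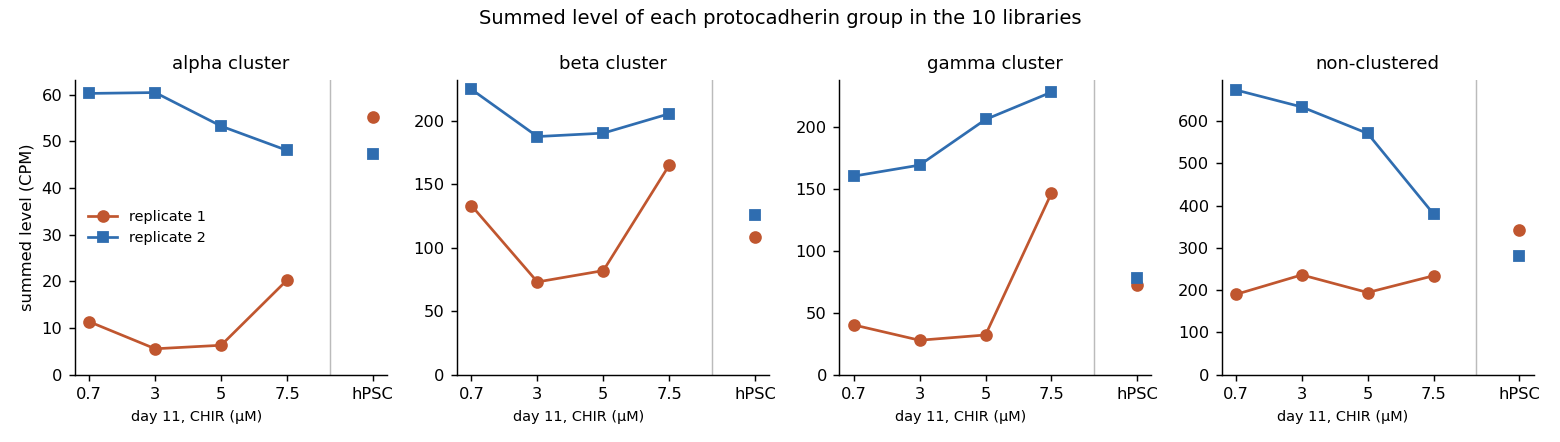
Summed level in CPM (vertical axis) of the alpha, beta, gamma and non-clustered protocadherin genes in each library, by CHIR concentration at day 11 and in hPSC at the right; circles are replicate 1 and squares replicate 2. Replicate 2 lies above replicate 1 at all 4 concentrations in each panel, and the gap is smallest at 7.5 µM.

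Levels of different genes were set side by side per kilobase of exon that no other gene shares. On that scale PCDH1, an adhesion protein best known from airway epithelium, had the highest mean level, 25.1 CPM per kilobase at day 11 and 24.6 in hPSC. PCDHB5 followed with 22.6 CPM per kilobase at day 11 and 13.97 in hPSC. That day 11 order was not the same in both replicates. PCDH1 had a mean of 69.5 CPM in replicate 1 and 226.7 CPM in replicate 2, and PCDHB5 58.5 and 72.9 CPM. Over 5903 unshared exon bases in PCDH1 and 2907 in PCDHB5, PCDHB5 was the higher per kilobase in replicate 1. At 7.5 µM it was also the higher, with a mean of 86.9 CPM, against 40.6 CPM for PCDH1. PCDH18, whose mouse form binds the adaptor Disabled-1, had 20.8 CPM per kilobase at day 11 and 14.8 in hPSC. Among gamma genes PCDHGC3 led with 9.49 CPM per kilobase at day 11 and 4.50 in hPSC. The alpha genes were lower, and their highest means were 1.53 CPM per kilobase for PCDHA12 at day 11 and 3.42 for PCDHAC2 in hPSC. PCDHA14 and PCDHB16 have no such length and are not placed in this order. All 16 alpha genes and 21 of 22 gamma genes share exon bases with other members, so their counts depend on how shared reads were treated.

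**Figure D2:**
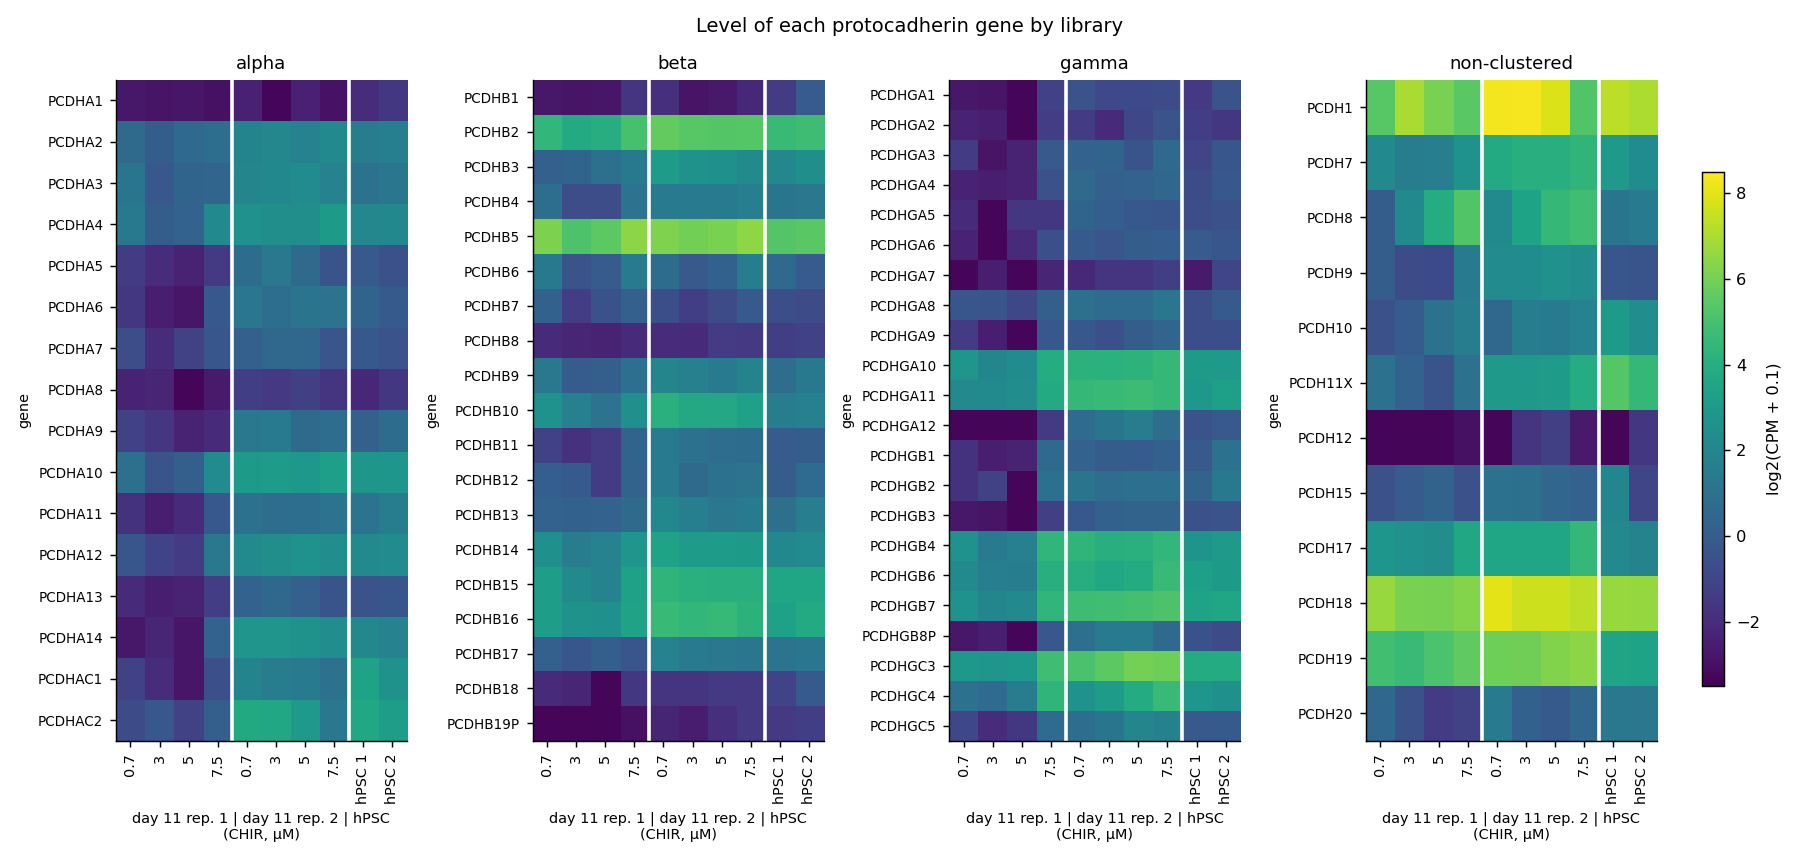
Level of 69 protocadherin genes (rows, one panel per group) in the 10 libraries (columns: day 11 replicate 1 from 0.7 to 7.5 µM CHIR, day 11 replicate 2, then hPSC), as log2(CPM + 0.1) in colour. Most alpha and gamma rows are darker in the replicate 1 columns, at 7.5 µM less so.

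Day 11 cultures were compared with hPSC to see which protocadherins change as stem cells become neural progenitors. Without the block, 3 genes rose and 1 fell among 62 tested, all of them non-clustered: PCDH19, PCDH8 and PCDH17 rose and PCDH10 fell (edgeR quasi-likelihood test, Benjamini-Hochberg adjustment). Over all 19672 genes tested 7.85% rose and 13.3% fell in that fit. With the block within day 11, 10 protocadherins rose and 8 fell, against 25.0% of all genes that rose and 29.6% that fell. The block takes the difference between the day 11 replicates out of the error, and no label ties the hPSC libraries to either replicate. Blocked standard errors and p-values against hPSC thus leave that difference out. The members that passed in either direction were 4 of 62 without the block, against 21.1% of all genes, and 18 of 62 with it, against 54.6%. The median log2 fold change with the block was −0.62 for alpha, 0.27 for beta, 0.08 for gamma and 0.52 for non-clustered genes, against −0.04 for all genes. These medians describe neither replicate: from mean CPM, 0 of 16 alpha genes were above hPSC in day 11 replicate 1 (median log2 ratio −2.0) and 12 of 16 in replicate 2 (0.58). Gamma genes were above hPSC in 3 of 22 in replicate 1 (−1.10) and in 19 of 22 in replicate 2 (0.97), and beta genes in 5 of 19 (−0.80) and 15 of 19 (0.44). The clustered genes among the 18 passed with the block only and were PCDHB10, PCDHB5, PCDHB14, PCDHGC3 and PCDHGA10, which rose, and PCDHAC1, PCDHAC2, PCDHA11, PCDHA9 and PCDHB18, which fell. In CPM without TMM, the library scaling used in the fits, the replicates of 3 of them lay on opposite sides of hPSC. PCDHGC3 had log2 ratios of −0.25 in replicate 1 and 1.76 in replicate 2, PCDHGA10 −0.06 and 1.27, and PCDHA9 −2.69 and 0.62. The counts of genes above hPSC and their median ratios also lack that scaling. In fits without TMM the median of all genes was −0.23 with the block and −0.14 without it, against −0.04 and 0.04 with TMM. Small ratios, such as −0.25 for PCDHGC3 and −0.06 for PCDHGA10 in replicate 1, thus do not settle the side of hPSC. In PCDHA9, replicate 2 had 1.49 to 2.54 CPM, against 1.02 and 1.60 CPM in hPSC.

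PCDH19, whose protein joins N-cadherin at neural cell contacts and whose loss in humans causes an X-linked epilepsy, had 28.6, 25.1, 33.8 and 47.0 CPM in day 11 replicate 1 and 58.2, 58.9, 74.4 and 84.4 CPM in replicate 2, from 0.7 to 7.5 µM, against 11.4 and 11.1 CPM in hPSC. Every day 11 library lay above both hPSC libraries. The log2 fold change was 2.33 ± 0.47 (SE) without the block (edgeR adjusted p = 0.0112) and 2.26 ± 0.19 with it (edgeR adjusted p = 1.61e-06).

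PCDH17, which in mouse supports the extension of axons in bundles through the WAVE complex, had 6.92, 5.85, 5.25 and 12.95 CPM in day 11 replicate 1 and 11.7, 12.2, 12.2 and 22.4 CPM in replicate 2, against 4.37 and 3.55 CPM in hPSC. Here too no day 11 library reached down to the hPSC level. It rose by 1.59 ± 0.44 on the log2 scale without the block (edgeR adjusted p = 0.0357) and by 1.54 ± 0.23 with it (edgeR adjusted p = 0.00016).

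PCDH10, also called OL-protocadherin, which in mouse is needed for the growth of striatal axons, had 0.585 to 2.91 CPM in day 11 replicate 1 and 1.32 to 3.398 CPM in replicate 2, against 7.99 and 5.19 CPM in hPSC. All 8 day 11 libraries lay below both hPSC libraries. It fell by 1.62 ± 0.40 on the log2 scale without the block (edgeR adjusted p = 0.0241) and by 1.66 ± 0.29 with it (edgeR adjusted p = 0.000427).

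PCDH11X, a neural protocadherin with a near-identical copy on the Y chromosome with which it can share reads, had 0.674 to 1.90 CPM in day 11 replicate 1 and 7.55 to 14.99 CPM in replicate 2, against 40.2 and 22.6 CPM in hPSC. The day 11 libraries were all lower, those of replicate 1 most. The log2 difference was −2.44 ± 0.89 without the block, which did not pass (edgeR adjusted p = 0.0924), and −2.96 ± 0.25 with it, which did (edgeR adjusted p = 1.39e-06). The C-type gene PCDHAC1 had 0.0481 to 0.564 CPM in day 11 replicate 1 and 1.90 to 3.66 CPM in replicate 2, against 10.9 and 6.11 CPM in hPSC. Again all day 11 libraries were below hPSC. The blocked fit gave a log2 fold change of −3.08 ± 0.37 (edgeR adjusted p = 2.91e-05) and the fit without the block −2.37 ± 1.08 (edgeR adjusted p = 0.159).

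PCDHAC2, the other alpha C-type gene, did not separate in the same way. It had 0.337 to 1.01 CPM in day 11 replicate 1 and 2.28 to 13.6 CPM in replicate 2, against 12.8 and 9.06 CPM in hPSC. Replicate 2 at 0.7 and 3 µM, with 13.6 and 12.6 CPM, was at the hPSC level. The blocked log2 fold change was −2.01 ± 0.42 (edgeR adjusted p = 0.00161), and that without the block −1.26 ± 1.18 did not pass (edgeR adjusted p = 0.487). PCDHA11 had 0.0751 to 0.772 CPM in replicate 1 and 1.62 to 1.995 CPM in replicate 2, against 2.01 and 2.87 CPM in hPSC, and its blocked log2 fold change was −1.63 ± 0.39 (edgeR adjusted p = 0.00415, without the block 0.464). Of the gamma C-type genes, PCDHGC3 had 6.604 to 27.9 CPM in replicate 1 and 33.3 to 62.8 CPM in replicate 2, against 14.7 and 14.5 CPM in hPSC. Replicate 1 was below hPSC at 0.7, 3 and 5 µM, and above it at 7.5 µM. The log2 fold change was 0.82 ± 0.29 with the block (edgeR adjusted p = 0.0307) and 1.14 ± 0.91 without it (edgeR adjusted p = 0.413), whereas PCDHGC4 at 0.32 ± 0.33 and PCDHGC5 at 0.65 ± 0.47 did not pass with the block (edgeR adjusted p = 0.435 and 0.254).

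In the beta array, PCDHB10 had 2.02 to 6.09 CPM in day 11 replicate 1 and 10.4 to 17.4 CPM in replicate 2, against 2.82 and 3.23 CPM in hPSC. One day 11 library, replicate 1 at 5 µM, lay below hPSC. Its blocked log2 fold change was 1.47 ± 0.31 (edgeR adjusted p = 0.00177, without the block 0.17). PCDHB5 had 35.8 to 85.0 CPM in day 11 replicate 1 and 61.5 to 88.8 CPM in replicate 2, against 38.6 and 42.7 CPM in hPSC, a blocked log2 fold change of 0.83 ± 0.18 (edgeR adjusted p = 0.0021, without the block 0.0516). PCDHB14 had 2.93 to 6.68 CPM in replicate 1 and 8.23 to 10.77 CPM in replicate 2, against 4.21 and 4.71 CPM in hPSC, a blocked log2 fold change of 0.70 ± 0.26 (edgeR adjusted p = 0.0379, without the block 0.277). PCDHB18, a pseudogene, stayed under 0.263 CPM at day 11, against 0.372 and 0.838 CPM in hPSC, with a blocked log2 fold change of −1.60 ± 0.56 (edgeR adjusted p = 0.0293, without the block 0.16).

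The remaining non-clustered genes split, and none of them passed without the block. With it, PCDH9 rose by 1.90 ± 0.47 on the log2 scale (edgeR adjusted p = 0.00454), with 0.481 to 2.64 CPM in day 11 replicate 1 and 4.78 to 5.81 CPM in replicate 2, against 0.712 and 0.678 CPM in hPSC. PCDH20 fell by 1.24 ± 0.31 on that scale (edgeR adjusted p = 0.00551). It had 0.289 to 1.364 CPM in replicate 1 and 0.847 to 2.502 CPM in replicate 2, against 2.354 and 2.275 CPM in hPSC. Its replicate 2 library at 0.7 µM lay above both hPSC libraries. PCDH18 rose by 0.52 ± 0.17 (edgeR adjusted p = 0.0223), although its replicate 1 libraries at 3, 5 and 7.5 µM, with 68.5, 65.4 and 78.5 CPM, lay below the hPSC values of 101.6 and 95.7 CPM. PCDH7, which has a part in neural tube closure in frog embryos, had 2.93 to 6.12 CPM in replicate 1 and 14.2 to 20.6 CPM in replicate 2, against 7.74 and 4.95 CPM in hPSC, and did not pass in either fit (blocked 0.55 ± 0.25, edgeR adjusted p = 0.0748). PCDH1 at −0.19 ± 0.38 and PCDH15, a component of the tip links of hair cells, at −0.79 ± 0.56 did not pass either (edgeR adjusted p = 0.698 and 0.25 with the block). PCDH12, a gene of endothelial cells, was at 0 to 0.321 CPM and was not tested.

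**Figure D3:**
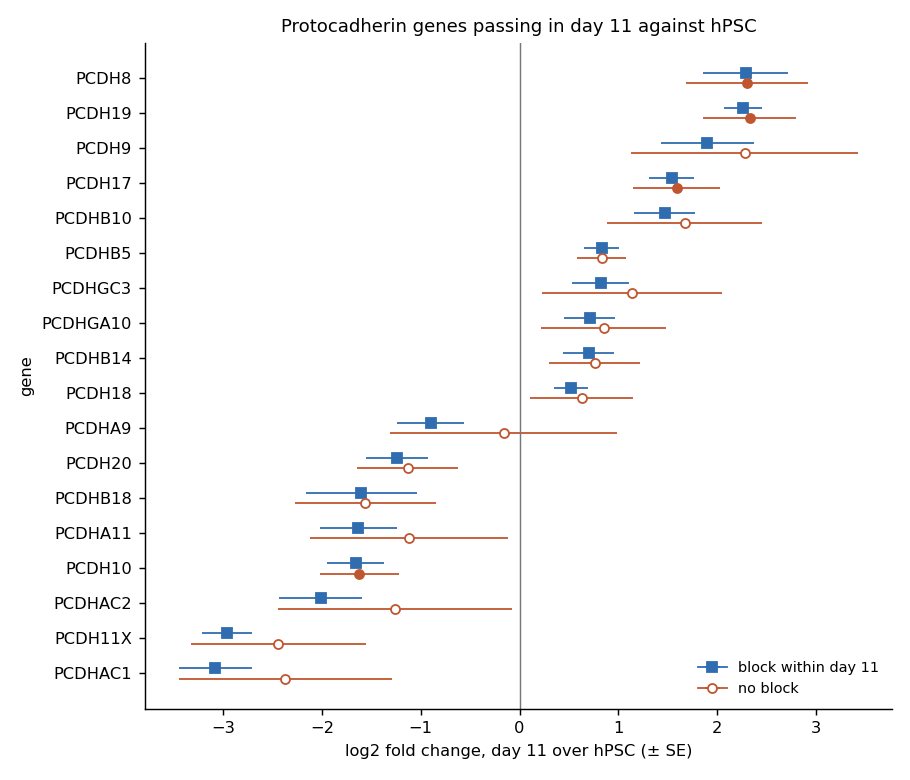
Log2 fold change of day 11 over hPSC (horizontal axis) with its standard error for the 18 protocadherin genes that passed with the block within day 11 (blue squares) and the same genes without the block (orange circles); filled symbols passed and open ones did not. The estimates differ little for PCDH8, PCDH19, PCDH17 and PCDH10, which passed both ways, and the bars are wider without the block.

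These calls rest on few libraries. Of the 4 calls without the block, 2 kept their side of the threshold under the other normalisations, filters and DESeq2, PCDH10 and PCDH19, and none kept it in every fit that left out a library. The number of members passing fell without either hPSC library or either library at 7.5 µM, and rose without replicate 2 at 5 µM. Of the 18 calls with the block, 9 kept it under every alternative tried: PCDH8, PCDH9, PCDH10, PCDH11X, PCDH17, PCDH19, PCDHB10, PCDHAC1 and PCDHAC2. The count of 18 fell without hPSC replicate 2 and rose without either replicate at 7.5 µM. Shares of all genes in the fits without a library are not given, so these changes do not single out the members.

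The dose series asks which genes follow the CHIR concentration at day 11, and PCDH8 had the largest difference among the members. PCDH8 is the paraxial protocadherin of frog and mouse embryos, which controls cell movement in gastrulation and somite formation, and its rat form arcadlin is induced in neurons by activity. With the concentrations in rising order, replicate 1 had 0.926, 4.54, 15.02 and 37.8 CPM, replicate 2 had 4.45, 10.8, 22.5 and 28.5 CPM, and hPSC had 2.11 and 2.75 CPM. The level was higher at each next concentration in both replicates, and the lowest dose of replicate 1 lay below hPSC.

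At 7.5 against 0.7 µM the blocked log2 fold change of PCDH8 was 3.63 ± 0.54 (edgeR adjusted p = 0.00377), 5.35 within replicate 1 and 2.68 within replicate 2. At 5 against 0.7 µM it was 2.96 ± 0.52 (edgeR adjusted p = 0.0281), and at 3 against 0.7 µM 1.68 ± 0.51, which did not pass (edgeR adjusted p = 0.436). In that 5 µM fit 0.706% of all genes rose. The slope was 1.07 ± 0.17 per doubling of CHIR with the block (edgeR adjusted p = 0.021), in a fit where 0.722% of all genes rose. Without the block the slope was 1.01 ± 0.20 and did not pass (edgeR adjusted p = 0.119). In that fit 0.134% of all genes passed, 0.0802% with a positive and 0.0535% with a negative slope, and no member did, with 4 of 61 at an unadjusted p below 0.05 and 1 called by DESeq2. Without the block the difference at 7.5 µM was 3.45 ± 0.78 and did not pass (edgeR adjusted p = 0.267). The blocked call at 7.5 µM held without each library in turn. The call at 5 µM did not hold without replicate 1 at 0.7 µM (edgeR adjusted p = 0.14) or at 5 µM (edgeR adjusted p = 0.0699), nor the slope without replicate 1 at 0.7 µM (edgeR adjusted p = 0.141).

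The 250 bases before the start of PCDH8 on the − strand of chromosome 13 (GRCh38.p14, RefSeq) are printed because PCDH8 passed in more dose comparisons than any other member.
PCDH8, chr13:52848641-52848890: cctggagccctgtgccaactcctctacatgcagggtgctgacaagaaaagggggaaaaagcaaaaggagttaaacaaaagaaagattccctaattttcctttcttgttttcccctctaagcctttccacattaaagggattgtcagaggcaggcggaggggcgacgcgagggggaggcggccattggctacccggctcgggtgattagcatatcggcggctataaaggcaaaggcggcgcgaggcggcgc
It holds neither CGCTG nor CTTTGAT, a word recognised by the TCF/LEF factors of the WNT pathway. CTTTGAT, which does not overlap the other words, occurs in 2.3% of all promoters of this length, in 1 of 11 non-clustered and in 0 of 46 clustered ones.

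PCDHGC4 and PCDH10 also rose at 7.5 against 0.7 µM. PCDHGC4, a C-type gamma gene that mouse interneurons need to survive, had 1.95, 1.501, 2.79 and 20.2 CPM in replicate 1 and 6.21, 8.49, 14.8 and 25.1 CPM in replicate 2, from 0.7 to 7.5 µM, with 6.88 and 5.59 CPM in hPSC. The 7.5 µM libraries were the highest of each replicate. The blocked log2 fold change was 2.63 ± 0.47 (edgeR adjusted p = 0.00813), 3.37 within replicate 1 and 2.01 within replicate 2. It did not pass without the block (2.30 ± 0.99, edgeR adjusted p = 0.589), nor with the block when replicate 1 or replicate 2 at 0.7 µM was left out (edgeR adjusted p = 0.0686 and 0.0578).

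PCDH10 had 0.585, 0.901, 1.93 and 2.91 CPM in replicate 1 and 1.32, 2.78, 2.72 and 3.398 CPM in replicate 2, so that it was highest at 7.5 µM in both and still below hPSC. Its blocked log2 fold change was 1.62 ± 0.45 (edgeR adjusted p = 0.0474), and that without the block was 1.54 ± 0.63 and did not pass (edgeR adjusted p = 0.552). Leaving out either 0.7 µM library or replicate 1 at 7.5 µM ended that call (edgeR adjusted p = 0.114 to 0.208). No protocadherin fell. In that fit 5.64% of 18709 genes rose and 4.87% fell, and 3 of 61 protocadherins rose. Without the block no gene passed at 7.5 against 0.7 µM, with 1641 of 18709 genes at an unadjusted p below 0.05, 2 of them protocadherins. DESeq2 without the block called 657 genes, 1 of them a protocadherin. The blocked count of 3 members fell without replicate 2 at 0.7 µM and rose without either replicate at 7.5 µM. Shares of all genes in those fits are not given, so the changes do not single out the members.

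**Figure D4:**
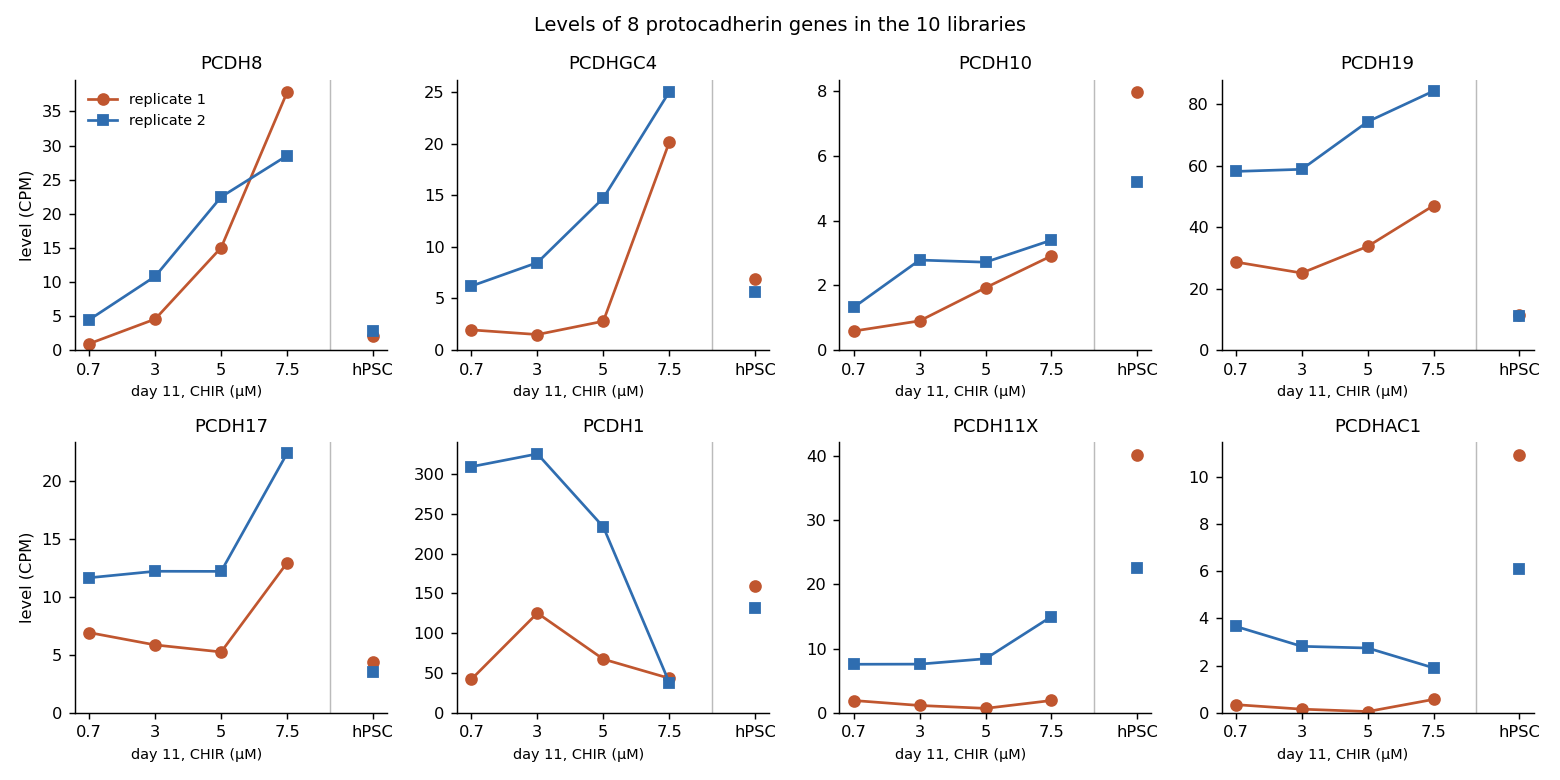
Level in CPM (vertical axes, each from 0) of 8 protocadherin genes by CHIR concentration at day 11 and in hPSC at the right; circles are replicate 1 and squares replicate 2. PCDH8 and PCDHGC4 are highest at 7.5 µM in both replicates, PCDH1 is at 43.3 and 37.9 CPM there, and PCDH11X and PCDHAC1 are highest in hPSC.

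The promoter of PCDHGC4 on the + strand of chromosome 5 (GRCh38.p14, RefSeq) is given as the clustered gene with the largest blocked dose difference, with CGCTG in capitals.
PCDHGC4, chr5:141484780-141485029: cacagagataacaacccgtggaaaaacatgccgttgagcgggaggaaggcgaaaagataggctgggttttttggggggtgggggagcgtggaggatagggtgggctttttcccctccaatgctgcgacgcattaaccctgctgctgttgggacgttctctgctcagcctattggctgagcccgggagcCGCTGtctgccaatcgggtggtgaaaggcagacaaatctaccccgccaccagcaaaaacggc

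The other members gave no dose call with the block. PCDH1 had 42.1, 125.3, 67.4 and 43.3 CPM in replicate 1 and 309.5, 326, 233.7 and 37.9 CPM in replicate 2. Replicate 2 was far lower at 7.5 µM than at 0.7 µM, a log2 ratio of −3.03, and replicate 1 about equal, a log2 ratio of 0.04. The blocked difference was −1.69 ± 0.57 (edgeR adjusted p = 0.0866). PCDH17 at 0.75 ± 0.27, PCDH18 at −0.70 ± 0.23 and PCDH20 at −1.48 ± 0.48 also missed the threshold (edgeR adjusted p = 0.105, 0.0814 and 0.0763).

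The gamma genes were higher at 7.5 than at 0.7 µM in 20 of 20 genes with counts in both libraries of replicate 1 and in 15 of 22 in replicate 2, with median log2 ratios of 1.81 and 0.28. These ratios, and those of the alpha and beta genes below, are of CPM without TMM scaling. In fits without TMM the median of all genes was 0.14 without the block and 0.24 with it, close to the replicate 2 value. No such count over all genes is given. PCDHGC4 was the only one of 21 tested gamma genes to pass, and PCDHGC3 at 1.26 ± 0.38 and PCDHGB6 at 1.13 ± 0.38 came next (edgeR adjusted p = 0.0628 and 0.085). The replicate 1 library at 7.5 µM also stood apart from the other replicate 1 libraries, with 17.4% of counts without a unique position, against 24.96% at 0.7 µM, and 10.05% in no gene, against 7.96%. The part of these shares in the difference was not tested. The alpha genes were higher in 11 of 16 in replicate 1 and in 5 of 16 in replicate 2, with medians of 0.82 and −0.44. The beta genes did so in 14 of 18 and 7 of 19, with medians of 0.23 and −0.32. The alpha and beta medians thus had opposite signs in the 2 replicates. At 3 against 0.7 µM no protocadherin passed without the block, with 1 of 61 at an unadjusted p below 0.05, nor with it, with 3 of 61, and DESeq2 with the block called 1. Over all genes 0.0214% passed with the block at 3 µM, 0.016% higher and 0.00535% lower, 1.13% passed at 5 µM and 1.19% for the slope.

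More protocadherins differed between the replicates at day 11 than in any other comparison. Of 61 protocadherins tested, 52 were lower in replicate 1 than in replicate 2 and none higher, against 28.7% of all 18709 genes lower and 26.9% higher, 55.6% in all (edgeR quasi-likelihood test). DESeq2 called 53 lower and none higher. Without TMM scaling, where the median of all genes was −0.22 and not −0.02, 55 were lower and 3615 genes of all were higher and 6236 lower, instead of 5029 and 5372. The median log2 fold change of replicate 1 over replicate 2 was −2.58 for the 14 alpha, −1.19 for the 15 beta, −1.93 for the 21 gamma and −1.05 for the 11 non-clustered genes, against −0.02 for all genes. Calls numbered 13 of 14 alpha, 12 of 15 beta, 19 of 21 gamma and 8 of 11 non-clustered genes.

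Among the alpha genes, PCDHA14, annotated as a pseudogene and chosen after its values were seen, had 0.0487, 0.113, 0.0481 and 1.10 CPM in replicate 1, against 6.61, 6.73, 6.34 and 5.08 CPM in replicate 2, from 0.7 to 7.5 µM. The log2 fold change was −4.40 ± 0.66 (edgeR adjusted p = 0.000722). PCDHA10 had 1.80, 0.638, 1.01 and 4.72 CPM in replicate 1, against 8.11, 8.45, 7.48 and 9.48 CPM in replicate 2, a log2 fold change of −2.16 ± 0.37 (edgeR adjusted p = 0.00121). PCDHA4 had 2.44, 0.938, 1.11 and 4.57 CPM in replicate 1, against 5.90, 5.25, 5.37 and 8.17 CPM in replicate 2, a log2 fold change of −1.47 ± 0.30 (edgeR adjusted p = 0.00253). In all 3 genes no replicate 1 library reached any replicate 2 library, and replicate 1 was highest at 7.5 µM. In hPSC PCDHA14 had 4.18 and 3.43 CPM, PCDHA10 7.15 and 6.78 CPM and PCDHA4 4.03 and 4.15 CPM.

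Among the gamma genes, PCDHGA12, chosen after its values were seen, was listed at 0 in replicate 1 at 0.7, 3 and 5 µM and had 0.267 CPM at 7.5 µM, against 1.497, 2.15, 2.83 and 1.65 CPM in replicate 2 (log2 fold change −4.56 ± 0.76, edgeR adjusted p = 0.00101). PCDHGC3 had 7.45, 6.604, 7.32 and 27.9 CPM in replicate 1, against 33.3, 44.0, 62.8 and 57.4 CPM in replicate 2, a log2 fold change of −2.05 ± 0.28 (edgeR adjusted p = 0.000568). PCDHGB7 had 6.19, 3.87, 4.43 and 20.8 CPM in replicate 1, against 27.5, 27.9, 31.4 and 34.9 CPM in replicate 2. PCDHGA11 had 4.34, 4.58, 5.20 and 14.3 CPM in replicate 1, against 22.4, 24.2, 26.2 and 22.5 CPM in replicate 2, a log2 fold change of −1.72 ± 0.29 (edgeR adjusted p = 0.00113). In all 4 genes replicate 1 was highest at 7.5 µM.

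The beta array had the smallest median difference of the arrays. PCDHB2 had 21.4, 14.1, 15.8 and 32.2 CPM in replicate 1, against 48.2, 42.2, 38.6 and 39.9 CPM in replicate 2 (log2 fold change −0.88 ± 0.21, edgeR adjusted p = 0.00516). PCDHB16 had 9.26, 6.004, 5.68 and 10.7 CPM in replicate 1, against 24.6, 22.0, 23.3 and 18.3 CPM in replicate 2 (log2 fold change −1.31 ± 0.22, edgeR adjusted p = 0.0011). The 9 members that did not pass were in all 4 groups: PCDHA7, PCDHB5, PCDHB6, PCDHB7, PCDHGA2, PCDHGB1, PCDH8, PCDH10 and PCDH15. PCDHB5 stood at −0.18 ± 0.17, PCDHB6 at 0.19 ± 0.30 and PCDHB7 at 0.61 ± 0.37 (edgeR adjusted p = 0.37, 0.611 and 0.179). PCDHA7, PCDHGA2 and PCDHGB1 had estimates of −1.16 ± 0.48, −1.53 ± 0.66 and −1.55 ± 0.63 (edgeR adjusted p = 0.0603, 0.0696 and 0.0561). PCDHB6 and PCDHB7 were the only 2 of 61 tested members with a positive estimate. The estimates of PCDH8, PCDH10 and PCDH15 were −0.59 ± 0.36, −0.62 ± 0.32 and −0.75 ± 0.37.

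**Figure D5:**
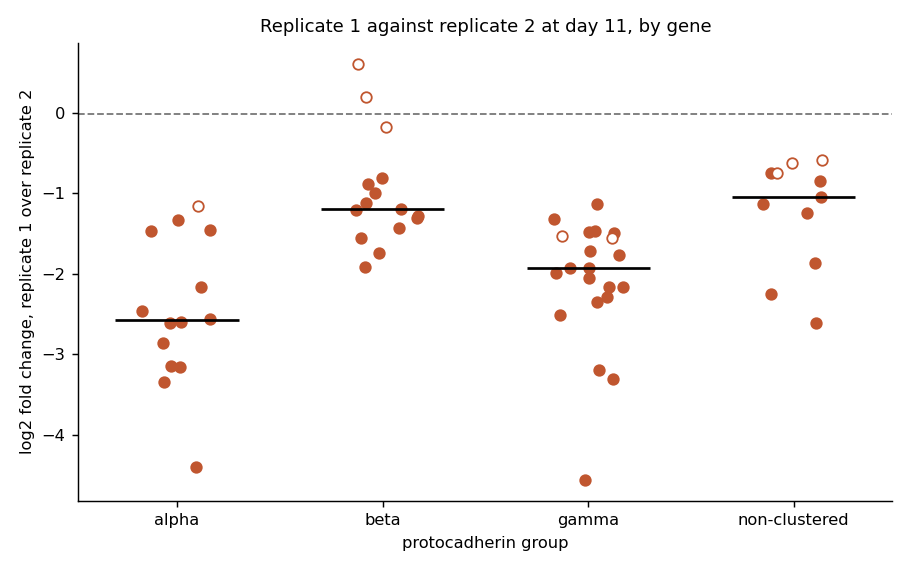
Log2 fold change of day 11 replicate 1 over replicate 2 (vertical axis) for the tested protocadherin genes by group; filled circles passed and open ones did not, black bars are group medians and the dashed line is the median of all genes, −0.02. All alpha and gamma genes lie at −1.13 or lower, and 2 beta genes lie above 0.

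The size of the replicate difference varied with the dose. Summed alpha levels were 11.4, 5.55, 6.31 and 20.3 CPM in replicate 1 and 60.3, 60.5, 53.3 and 48.1 CPM in replicate 2, from 0.7 to 7.5 µM, so that replicate 2 was 5.31, 10.9, 8.45 and 2.37 times replicate 1. For gamma genes the ratio was 3.99, 6.08, 6.42 and 1.56, for beta genes 1.69, 2.57, 2.32 and 1.25, and for non-clustered genes 3.55, 2.68, 2.94 and 1.62. The ratio was smallest at 7.5 µM in each of the 4 groups. Whether it differs between doses was not tested, since each dose has 1 library of each replicate.

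Several library measures moved with the replicates. Reads in no annotated gene were 6.88% to 10.05% of the counts in replicate 1 and 13.04% to 16.42% in replicate 2, and reads without a unique position 24.96%, 28.34%, 27.59% and 17.4% in replicate 1, from 0.7 to 7.5 µM, and 15.13% to 17.84% in replicate 2. The hPSC libraries, with 15.99% and 16.32% in no gene and 15.38% and 16.07% without a unique position, lay within the replicate 2 ranges. The part of these shares in the differences from hPSC was not tested. The replicate 1 library nearest to replicate 2 in both shares was that at 7.5 µM, where the protocadherin ratios were also smallest. Genes other than protocadherins differed by exon length: the median log2 fold change was 0.68 in the 4537 genes with the shortest exon sum, 0.27 and −0.17 in the next 2 of 4 bins, and −0.65 in the bin of the longest, where 52.9% of genes were lower in replicate 1. The protocadherins with a length had a median of −1.56, and 51 of 60 (85.0%) were lower. TAF7, the coding gene among the arrays that was tested, chosen after its values were seen, had 172 to 222 CPM in replicate 1 and 163 to 224 CPM in replicate 2, a log2 fold change of 0.24 (edgeR adjusted p = 0.232).

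The neuron markers STMN2, DCX, MAP2 and ELAVL4, 4 of the 5 on the list (TUBB3 has 2 entries and was left out), summed to 118.9 to 331.1 CPM in replicate 1 and to 294.4 to 548.9 CPM in replicate 2, with none at 0. The 4 mesenchymal markers summed to 16.6 to 38.1 CPM and to 36.2 to 108.1 CPM, with COL3A1 at 0 in 1 replicate 1 library. The 3 neural crest markers summed to at most 0.146 CPM in replicate 1 and 0.555 CPM in replicate 2, with FOXD3 at or near 0 in all 8 and SOX10 at 0 in 3 replicate 1 libraries. The 4 floor plate markers went the other way as a sum. Replicate 1 had 432.8, 222.1, 285.5 and 546.6 CPM and replicate 2 263.5, 198.8, 254.9 and 546.1 CPM. The sum of the 4 neural progenitor markers did so too, with 6954 to 9940 CPM and 6357 to 7636 CPM, mostly from VIM and NES. Single markers of these 2 lists differed. SOX2 was higher in replicate 2 at each concentration, with 132 to 210 CPM in replicate 1 and 229 to 443 CPM in replicate 2. SOX1 and OTX2 were higher in replicate 2 at 0.7, 3 and 5 µM, and VIM at 0.7 µM. LMX1A and CORIN were higher in replicate 1 except at 7.5 µM, and NES and FOXA2 at each concentration. Among the mesenchymal markers LUM was also higher in replicate 1 at each concentration. The part of these measures in the difference was not tested.

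Genes that act on or with protocadherins were counted as 3 lists. Of 12 tested regulators of the clustered promoters and their chromatin, none rose and 1 fell at day 11 against hPSC without the block. Of all genes 7.85% rose and 13.3% fell in that fit. The median log2 fold change was −0.47, against 0.04 for all genes. With the block none rose and 5 fell, against 25.0% and 29.6% of all genes, with a median of −0.59, against −0.04 for all genes. DNMT3B, a DNA methyltransferase that in mouse methylates clustered promoters, passed both ways and fell to 48.2 to 173 CPM at day 11, against 947 and 965 CPM in hPSC (blocked log2 fold change −3.09 ± 0.21, edgeR adjusted p = 3.18e-07, without the block 0.00281). CTCF at −0.60 ± 0.17 and the cohesin loader NIPBL at −0.74 ± 0.22 passed with the block (edgeR adjusted p = 0.0121 and 0.0144) and not without it (edgeR adjusted p = 0.137 and 0.547). Between the day 11 replicates 8 of the 12 were lower in replicate 1 and none higher, against 28.7% and 26.9% of all genes. The median was −0.77, against −0.02 for all genes. The repressor SMCHD1, the cohesin subunit STAG2 and NIPBL were lower by log2 values of −1.88, −1.81 and −1.44. At 7.5 against 0.7 µM, STAG1 passed with the block at 1.28 ± 0.27 (edgeR adjusted p = 0.0155) and not without it (edgeR adjusted p = 0.483).

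Of 11 WAVE complex and focal adhesion kinase genes, through which protocadherin tails reach the actin skeleton, none passed at day 11 against hPSC without the block. In that fit 21.1% of all genes passed. With the block 1 rose and 2 fell, below the shares of all genes in both directions, with a median of −0.13. BRK1 at 0.86 ± 0.24, NCKAP1 at −0.93 ± 0.26 and WASF1 at −0.75 ± 0.17 passed with the block (edgeR adjusted p = 0.0101, 0.00903 and 0.00315) and not without it (edgeR adjusted p = 0.247, 0.426 and 0.0977). Between the replicates 1 was higher and 6 lower in replicate 1, against 26.9% and 28.7% of all genes, 55.6% in all. Their median was −0.68, against −0.02 for all genes.

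Of the 9 FAT, Dachsous and CELSR cadherins, relatives that set planar polarity, 2 rose and 1 fell at day 11 without the block. Over all genes 7.85% rose and 13.3% fell in that fit. With the block 3 rose and 2 fell, against 25.0% and 29.6% of all genes. CELSR1 and CELSR2 rose both ways, by 2.24 ± 0.26 and 1.51 ± 0.21 on the log2 scale with the block (edgeR adjusted p = 1.86e-05 and 9.88e-05, without the block 0.0066 and 0.023). FAT2 fell both ways and had at most 0.204 CPM at day 11, against 3.19 CPM in both hPSC libraries. FAT4 at 2.09 ± 0.24 and FAT3 at −1.70 ± 0.19 passed with the block (edgeR adjusted p = 2.03e-05 and 1.33e-05) and not without it (edgeR adjusted p = 0.123 and 0.141). None of the 8 tested in the dose comparisons passed there with the block. Between the day 11 replicates 5 of the 8 were lower in replicate 1 and none higher, against 28.7% and 26.9% of all genes. Their median was −0.79, against −0.02 for all genes.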

How the data were processed

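The authors deposited RNA-seq read counts per gene; those of the hPSC and day 11 libraries were used. Per the submitters' processing notes the tools were STAR 2.4.2a, HTSeq 0.5.3, featureCounts 1.4.2 and DESeq2 1.12.4 on hg19, and no source used here says which counter made which table or whether strand was counted. Reads not counted to a gene came as summary entries, 37.41% to 44.33% of counts. They include reads in no gene, ambiguous reads and reads without a unique position, and entered neither library sizes nor tests. CPM, computed from these deposited counts, are scaled to 1000000 gene counts, without TMM. Tests used edgeR 4.0.16 (R 4.3.3, limma 3.58.1) on all genes: filterByExpr, TMM, robust quasi-likelihood fits, Benjamini-Hochberg adjustment, threshold 0.05. Against hPSC the 10 libraries entered, and otherwise the 8 day 11 libraries. DESeq2 1.42.0, other filters, no TMM and leaving out each library were alternatives. The fits were tested on simulated data.

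The pairing check used 19672 genes; hPSC and day 11 correlated at −0.115 to −0.177, so the block was set within day 11. Named genes were the non-clustered members with at least 1 CPM in 2 libraries, the 3 of highest mean CPM and the C-type genes of each array, and members that passed (up to 6 per direction in a dose comparison and 3 per array and direction against hPSC). Other members (PCDHA14, PCDHA9, PCDHGA12, PCDHGB6, PCDHB6, PCDHB7 and those listed as not passing) were chosen after their values were seen. The members, lists and rule were chosen with earlier results of these data known. Exon lengths came from GENCODE 29 by gene identifier (69 of 70 members); the counts use hg19, so its coordinates are not given. Values of the Y-linked member are not printed.

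The tables labelled day 16 and day 30 were not used for results. In them 37.5% to 51.3% of gene and antisense pairs with 20 or more counts had more counts for the antisense gene, against 4.47% to 6.09% in the others, and SOX2 had 0 counts in all 4.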

Additional observations from a re-analysis of the deposited data

Results flagged for a closer look

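The 4 libraries labelled day 16 and day 30 entered no comparison, but for some members each held more than 3 counts, the floor set here. The lowest count over the 4 libraries was 370 for PCDHA1 and 271 for PCDH12, which reached at most 0.239 and 0.321 CPM in the hPSC and day 11 libraries. It was 34 for PCDH11X, 24 for PCDH7, 18 for PCDH17, 15 for PCDHB2, 13 for PCDH9, 9 for PCDH19, 7 for PCDH10 and 5 for PCDHB10. PCDH15, PCDH18 and PCDHB14 had at least 4. In the same libraries 15 of 16 alpha and 21 of 22 gamma genes had 0 counts. VIM had 235, 49.8, 33.7 and 22.3 CPM there and VIM-AS1 593, 1550, 512 and 232 CPM. Beyond these values and the antisense shares given above, which strand was counted was not tested. The counts are therefore not read as levels of the named genes.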

How the results depend on the processing

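The number of protocadherins passing moved with the replicate block, with the test and filter, and with single libraries. Against hPSC it was 4 without and 18 with the block, 2 without TMM, and 0 to 7 and, with the block, 11 to 28 when a library was left out. At 7.5 against 0.7 µM it was 0 without and 3 with the block, 1 with DESeq2, and with the block 7 with DESeq2, 9 without a filter and 1 to 22 when a library was left out (22 without replicate 2 at 7.5 µM). At 5 µM the number passing was 0 without and 1 with the block, 1 with DESeq2, and 2 with the block and no filter. At 3 µM it was 0 and 0, and 1 with the block under DESeq2 or no filter. For the slope it was 0 and 1, 1 with DESeq2, 4 with the block and DESeq2, and 0 to 1 without a library in both fits. The 52 genes lower in replicate 1 were 41 to 54 without a library, and 39 of the 52 kept their call under every alternative. No called gene changed direction. Over all genes the calls with the block were 10732 against hPSC, 1967 at 7.5 µM, 211 at 5 µM, 4 at 3 µM and 222 for the slope, and without it 4152, 0, 0, 0 and 25; DESeq2 without it called 6258, 657, 129, 17 and 330, and with it 3006, 612, 196 and 812 in the dose fits. No filter gave 29 and 6 calls at 7.5 and 5 µM without the block, and 3391, 783, 320 and 383 in the dose fits with it; no TMM gave 13 for the slope. Without TMM the median log2 fold change of all genes lay between −0.23 and 0.24, against −0.04 to 0.07 with it, and the blocked split of higher and lower calls was 1209 and 594 instead of 1056 and 911 at 7.5 µM, and 3755 and 6694 instead of 4910 and 5822 against hPSC. Day 30 against day 16 and its alternatives, planned earlier, were not run because the later tables differ in kind. With 2 libraries per group, small differences and members near 0 were not detectable at this depth.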
